A study of Mus musculus with 36 samples.

Results

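The IL-17 receptor family holds 5 genes, Il17ra, Il17rb, Il17rc, Il17rd and Il17re, out of 49568 gene names counted in RAW264.7 cells, a mouse macrophage line. The genes were selected on the name of the family, with the level of Il17ra in the Il-4 libraries already known, so its difference from PBS there is a description and was not tested. Cells were kept for 72 h with a 15-mer peptide at 100 µg/ml and either IFNγ or Il-4 at 5 ng/ml, and control cells are labelled PBS. The peptide 65–79*SE comes from an HLA-DRB1 allele linked to rheumatoid arthritis risk (the shared epitope) and 65–79*PE from an allele linked to protection (the protective epitope). The 36 libraries form 6 groups of 6, which are PBS, 65–79*SE plus IFNγ and 65–79*PE plus IFNγ in the IFNγ table, and PBS, 65–79*SE plus Il-4 and 65–79*PE plus Il-4 in the Il-4 table. Peptide without cytokine and cytokine without peptide were not analysed here, so in a contrast against PBS the peptide and the cytokine cannot be told apart. The text of the study can be read as cytokine in every arm or in the peptide arms alone. All libraries come from 1 cell line, and the biological replicates come from 2 independent experiments, with no statement of which replicate belongs to which. The sample labels of replicates 1–3 follow the same scheme in both tables. Those of replicates 4–6 follow a scheme of their own, which differs between the tables. These sets of replicates are shown apart.

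IL-17 cytokines signal through receptor pairs at the cell surface. Il17ra is the subunit shared by most of these pairs. It joins Il17rc to bind IL-17A and IL-17F, Il17rb to bind IL-25, and Il17re to bind IL-17C, while Il17rd is a further family member that takes part in or restrains this signalling depending on the cell. The receptors recruit the adaptor Act1 (gene Traf3ip2), which passes the signal through TRAF proteins to NF-κB and to proteins that stabilise short-lived mRNAs of chemokines and cytokines. Macrophages carry Il17ra, and IL-17 is studied in them for its part in joint inflammation.

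In these cells 2 receptors were expressed and 3 were at or close to 0. Il17ra and Il17rc passed the filter on low counts in both tables, and Il17rb, Il17rd and Il17re passed it in neither. On GRCm38 (GENCODE annotation), Il17ra (ENSMUSG00000002897.5) lies on chr6:120463247-120487559 and Il17rc (ENSMUSG00000030281.16) on chr6:113471427-113483140, both on the plus strand. Il17re (ENSMUSG00000043088.16) lies on the same strand just before Il17rc, on chr6:113458484-113470758, and 668 bases separate the end of Il17re from the start of Il17rc. Il17rd (ENSMUSG00000040717.6) lies on chr14:27038941-27107286 on the plus strand. Il17rb (ENSMUSG00000015966.17) lies on chr14:29996135-30008896 on the minus strand, where it overlaps Actr8 on the opposite strand, so reads there cannot be told apart unless strand was used in counting.

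Il17rc was the member called with IFNγ, so the 250 bases upstream of its RefSeq start (GRCm38.p6, chr6:113471205-113471454, plus strand) are shown in lower case.
Il17rc upstream: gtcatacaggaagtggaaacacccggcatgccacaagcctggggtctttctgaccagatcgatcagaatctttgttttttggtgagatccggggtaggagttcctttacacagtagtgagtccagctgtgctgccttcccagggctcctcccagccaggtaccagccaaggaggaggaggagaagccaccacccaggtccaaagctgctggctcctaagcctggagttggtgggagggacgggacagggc
Motifs were searched on both strands of such 250 base windows. They were TTCNNNNGAA, which STAT6 binds after Il-4, and GAAANNGAAA, the core of the interferon-stimulated response element. Neither motif occurred in the window of Il17rc, so no base is in capitals, and neither occurred in those of Il17rb, Il17rd or Il17re. Among 32851 RefSeq windows of the same length, 5.85% held the STAT6 spelling and 2.98% the response element core.

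Total counts per library ran from 20.67 M to 63.16 M reads in the IFNγ table and from 17.05 M to 30.64 M reads in the Il-4 table. The macrophage markers Adgre1, Csf1r, Itgam, Cd68 and Lyz2 summed to 2790 to 9470 CPM (read counts scaled to library size) in every library, while the T cell (4 genes), B cell (3), fibroblast (3) and epithelial (3) lists each summed to at most 1.24 CPM. With IFNγ, 3 libraries stood apart from their label. Genes of the IFNγ response (Irf1, Gbp2, Cxcl9, Ciita, H2-Aa and Ly6a) summed to 13.9–15.7 CPM in the libraries labelled 65–79*SE plus IFNγ, replicates 4–6, where PBS had 14.5–16.5 CPM. The same sum was 1050–1190 CPM in replicates 1–3 of 65–79*SE plus IFNγ and 811–1330 CPM in the 6 libraries of 65–79*PE plus IFNγ. Log2 fold changes of the receptors and counts of calls for 65–79*SE plus IFNγ are therefore also given without those 3 libraries. Most other results, among them the correlations and the levels per kilobase, keep all libraries. In the Il-4 table the 9 genes of the Il-4 response (Mgl2, Cish, Arg1, Chil3, Retnla, Ccl17, Ccl22, Clec10a and Mrc1) summed to 16.8–46.1 CPM in PBS, 96.1–271 CPM with 65–79*SE plus Il-4 and 164–315 CPM with 65–79*PE plus Il-4. Most of the sum came from Clec10a, Mgl2 and Mrc1, with means of 89.1, 31.7 and 23.9 CPM over that table. Retnla and Ccl17 had 0 reads in every library there, Chil3 at most 1 and Ccl22 at most 12.

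Il17ra was lower in both Il-4 groups than in PBS. Its level in PBS had a lowest value of 43.2, a median of 57.2 and a highest of 64.5 CPM over 6 libraries (mean 55.3 ± 7.3, SD). With 65–79*SE plus Il-4 the lowest, median and highest values were 18.2, 21.9 and 26.4 CPM (mean 22.1 ± 2.95, SD, n = 6). They were 14.3, 17.9 and 20.4 CPM with 65–79*PE plus Il-4 (mean 17.7 ± 2.74, SD, n = 6). Every Il-4 library was below every PBS library, while the 2 Il-4 groups overlapped each other. In bulk RNA a lower level in each cell and fewer expressing cells cannot be told apart.

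The log2 fold change of Il17ra was −1.33 (SE 0.09) with 65–79*SE plus Il-4 against PBS, or 2.52-fold lower. With 65–79*PE plus Il-4 it was −1.66 (SE 0.09), or 3.15-fold lower. These contrasts share the PBS libraries. Replicates 1–3 alone gave −1.19 and −1.47, and replicates 4–6 alone gave −1.43 and −1.80. Among 8761 genes with a mean of at least 10 CPM in the table, Il17ra had the third lowest log2 fold change (rank 3) in each of these contrasts. Over all 13494 genes tested, 3.1% were called with 65–79*SE plus Il-4 and 4.35% with 65–79*PE plus Il-4, where a call needs an adjusted p below 0.05 together with a change of more than 1.5-fold. The members were chosen with these contrasts known, so nothing is read from these shares.

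**Figure D1:**
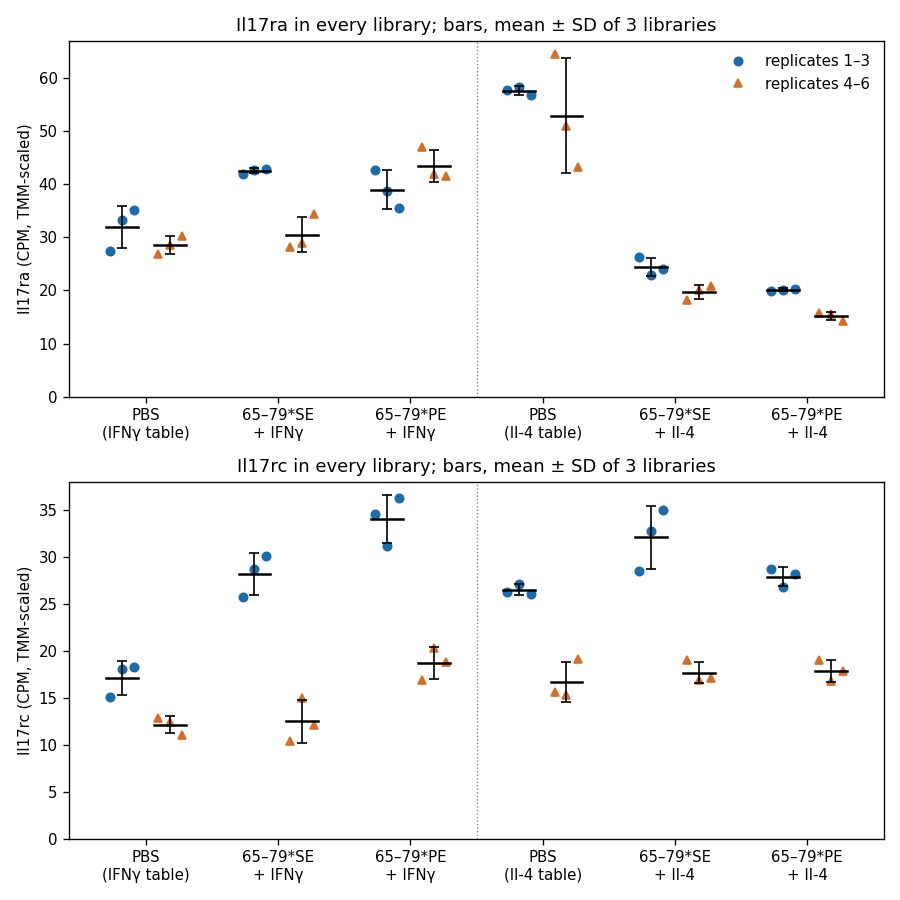
Levels of Il17ra (top) and Il17rc (bottom) in CPM after TMM scaling in each of the 36 libraries. Circles are replicates 1–3, triangles are replicates 4–6, and bars are the mean ± SD of 3 libraries. The Il-4 libraries of Il17ra sit between 14.3 and 26.4 CPM and the PBS libraries of that table between 43.2 and 64.5 CPM, while Il17rc is higher in replicates 1–3 than in replicates 4–6 of every group.

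Between the peptides, Il17ra was 1.25-fold higher with 65–79*SE plus Il-4 than with 65–79*PE plus Il-4, and the difference did not pass the test over all genes. In replicates 1–3 the 65–79*SE libraries had 23–26.4 CPM and the 65–79*PE libraries 19.9–20.4 CPM. In replicates 4–6 they had 18.2–20.8 and 14.3–15.8 CPM. The peptide groups did not overlap within either set of replicates, but they overlapped when the sets were pooled. The log2 difference was 0.32 (SE 0.09, 95% interval 0.14 to 0.51, edgeR unadjusted p = 0.00174, adjusted p = 0.361). In this comparison 0.00741% of 13494 genes were called, which was 1 gene by edgeR. Neither edgeR nor DESeq2 called a member, and 1 of the 2 members tested had an unadjusted p under 0.05. For Il17rc the difference was 0.10 (SE 0.08, 95% interval −0.07 to 0.26, edgeR adjusted p = 0.811).

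Il17rc, the partner subunit for IL-17A and IL-17F, was not lower with Il-4. Its mean was 21.6 ± 5.55 CPM in PBS, 24.8 ± 8.2 CPM with 65–79*SE plus Il-4 and 22.8 ± 5.56 CPM with 65–79*PE plus Il-4 (SD, n = 6 each). The log2 fold changes against PBS were 0.18 (SE 0.08) and 0.09 (SE 0.08). Most of the spread lay between the sets of replicates. In PBS, replicates 1–3 had 26–27.1 CPM and replicates 4–6 had 15.3–19.1 CPM.

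The ratio of Il17ra to Il17rc reads in a library does not depend on how libraries are scaled to each other. In the Il-4 table it was 2.15 to 4.15 in PBS (mean 2.71 ± 0.838, SD, n = 6). It was 0.686 to 1.22 with 65–79*SE plus Il-4 (mean 0.946 ± 0.227, n = 6) and 0.693 to 0.926 with 65–79*PE plus Il-4 (mean 0.789 ± 0.0844, n = 6). No PBS library overlapped with a library of either Il-4 group. In the IFNγ table the ratio was 1.83–1.92 in PBS replicates 1–3 and 0.98–1.24 in replicates 1–3 of 65–79*PE plus IFNγ. In replicates 4–6 it was 2.1–2.73 in PBS and 2.07–2.79 with 65–79*PE plus IFNγ, and these ranges overlapped. For 65–79*SE plus IFNγ it was 1.43–1.64 in replicates 1–3, below PBS, and 1.94–2.84 in replicates 4–6, which overlapped with PBS.

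**Figure D2:**
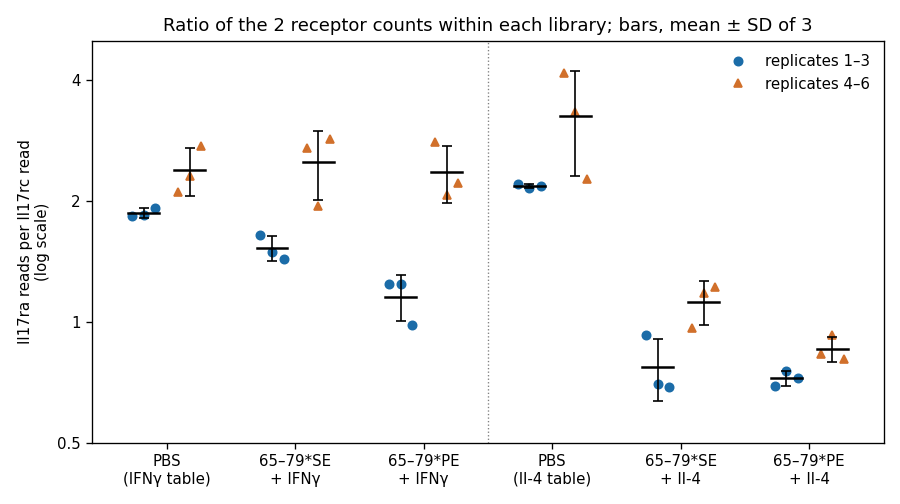
Reads of Il17ra per read of Il17rc in each of the 36 libraries on a log scale, with circles for replicates 1–3, triangles for replicates 4–6 and bars for the mean ± SD of 3 libraries. With Il-4 the ratio lies between 0.686 and 1.22, and in PBS of the same table between 2.15 and 4.15.

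With IFNγ, Il17rc rose with 65–79*PE. It had a lowest value of 11.1, a median of 13.9 and a highest of 18.3 CPM in PBS (mean 14.6 ± 3.03, SD, n = 6). Its mean was 26.3 ± 8.63 CPM with 65–79*PE plus IFNγ, at 31.2–36.2 CPM in replicates 1–3 and 16.8–20.2 CPM in replicates 4–6. Each set lay above the PBS libraries of the same set, which had 15–18.3 and 11.1–12.8 CPM. The log2 fold change was 0.80 (SE 0.12, edgeR adjusted p = 0.000102), or 1.74-fold, and 13.0% of 15949 genes were called in this comparison. Il17rc was the 1 member called of the 2 that were tested. It rose in replicates 1–3 (log2 fold change 1.03, edgeR adjusted p = 1.73e-06, 19.8% of genes called) and in replicates 4–6 (0.63, adjusted p = 0.00316, 10.8% called). Without the 3 libraries of 65–79*SE that lacked the IFNγ response, which share the estimate of the spread, it was 0.83 (adjusted p = 1.21e-06, 14.3% called). Without the term for the sets of replicates the adjusted p of the 65–79*PE contrast was 0.0779. Il17rc was among the genes the study itself drew from these libraries, so this is not independent evidence of its direction.

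Il17ra was also higher with 65–79*PE plus IFNγ, by less than the fold required for a call. It had 26.8, 29.4 and 35.1 CPM as lowest, median and highest value in PBS (mean 30.2 ± 3.3, SD, n = 6). The lowest, median and highest were 35.5, 41.7 and 46.9 CPM with 65–79*PE plus IFNγ (mean 41.2 ± 3.85, SD, n = 6), all above the PBS libraries. The log2 fold change was 0.46 (SE 0.10, edgeR adjusted p = 0.0027), or 1.37-fold. It was 0.33 in replicates 1–3 (adjusted p = 0.0105) and 0.60 in replicates 4–6 (adjusted p = 0.000454), where it passed both thresholds at 1.52-fold.

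With 65–79*SE plus IFNγ the members were higher than in PBS in replicates 1–3 and close to PBS in replicates 4–6, and edgeR called no member over the 6 libraries, where 3.57% of genes were called, although both members tested had an unadjusted p under 0.05. DESeq2 also called none. Il17rc had 25.6–30 CPM in replicates 1–3, above the 15–18.3 CPM of PBS, and 10.4–14.9 CPM in replicates 4–6, which overlapped with the 11.1–12.8 CPM of PBS. Over all replicates its log2 fold change was 0.39 (SE 0.12, edgeR adjusted p = 0.0473), which is 1.31-fold. In replicates 1–3 alone it was 0.75 (adjusted p = 2.72e-05), or 1.68-fold, with 22.8% of 15343 genes called. In replicates 4–6 alone it was 0.05 (adjusted p = 0.896), with 0.72% of 15563 genes called. The difference between the sets of replicates was −0.68 (SE 0.17) and passed the test (edgeR interaction, adjusted p = 0.00288). In that test 3792 of 15949 genes were called. With the 3 libraries lacking the IFNγ response left out, Il17rc was 0.64 above PBS (adjusted p = 0.000296) and was called, with 18.6% of 16672 genes called.

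Il17ra had 42–42.9 CPM in replicates 1–3 of 65–79*SE plus IFNγ and 28.2–34.3 CPM in replicates 4–6. The 3 libraries of replicates 1–3 were above all PBS libraries, and those of replicates 4–6 overlapped with them. The log2 fold change was 0.27 (SE 0.10, edgeR adjusted p = 0.103) over all replicates, 0.44 (adjusted p = 0.00128) in replicates 1–3 and 0.10 (adjusted p = 0.612) in replicates 4–6. Without the 3 libraries lacking the IFNγ response it was 0.52 (adjusted p = 0.000303), or 1.43-fold. By mean, the order of Il17ra in the IFNγ table was 65–79*PE, 65–79*SE and PBS, with means of 41.2, 36.5 and 30.2 CPM, and the 65–79*SE libraries overlapped with both neighbours. Without the 3 libraries lacking the IFNγ response the mean of 65–79*SE was 42.5 ± 0.488 CPM (SD, n = 3), above that of 65–79*PE, so the order of the peptides rests on those libraries.

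The peptides were compared directly with IFNγ as well, and neither edgeR over all replicates or in either set nor DESeq2 called a member, with 3.19% of genes called over all replicates, 6.08% in replicates 1–3 and 13.8% in replicates 4–6. Of the members, 1 had an unadjusted p under 0.05 over all replicates. Il17rc was 1.33-fold lower with 65–79*SE than with 65–79*PE (log2 difference −0.41, SE 0.12, 95% interval −0.66 to −0.17, edgeR adjusted p = 0.0304). Without the 3 libraries lacking the IFNγ response, the Il17rc difference was −0.19 (adjusted p = 0.315), with 5.16% of genes called. In replicates 1–3 alone it was −0.28 (adjusted p = 0.0468) and in replicates 4–6 alone −0.58 (adjusted p = 0.00471). The Il17ra difference was −0.19 (SE 0.10, 95% interval −0.40 to 0.03, adjusted p = 0.266), and it turned to 0.12 (adjusted p = 0.397) in replicates 1–3 and to 0.05 (adjusted p = 0.784) without those libraries. In replicates 4–6 it was −0.50 (adjusted p = 0.00147). The Il17ra difference changed between the sets by −0.63 (SE 0.14, edgeR interaction, adjusted p = 0.00138). In that test 2760 of 15949 genes were called.

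**Figure D3:**
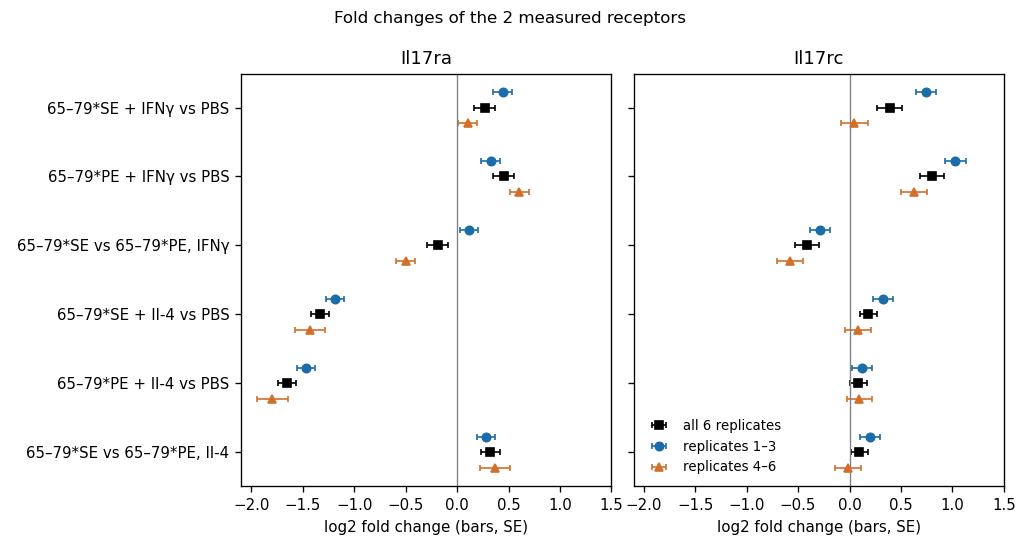
Log2 fold changes of Il17ra (left) and Il17rc (right) in the 6 contrasts, with SE as bars. Black squares are fits over all 6 replicates, circles replicates 1–3 alone and triangles replicates 4–6 alone. Il17ra lies between −1.80 and −1.19 in both Il-4 contrasts against PBS. Il17rc with 65–79*SE plus IFNγ lies at 0.75 in replicates 1–3 and 0.05 in replicates 4–6. The 65–79*SE plus IFNγ libraries of replicates 4–6 lacked the IFNγ response.

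Per kilobase of exon, the mean of Il17rc was above that of Il17ra in every group. The union of annotated exons is 2.67 kb for Il17rc and 8.66 kb for Il17ra. In PBS of the IFNγ table the levels were 5.46 ± 1.13 CPM per kb for Il17rc and 3.49 ± 0.381 CPM per kb for Il17ra (SD, n = 6). They were 9.85 ± 3.23 and 4.76 ± 0.444 CPM per kb with 65–79*PE plus IFNγ. In PBS of the Il-4 table they were 8.07 ± 2.08 and 6.38 ± 0.843 CPM per kb, and with 65–79*PE plus Il-4 they were 8.55 ± 2.08 and 2.04 ± 0.316 CPM per kb. The libraries of the 2 genes overlapped in PBS of the Il-4 table and with 65–79*SE plus IFNγ, where the levels per kb were 7.6 ± 3.3 and 4.22 ± 0.799. Exons that these cells do not use would lower such a value.

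The 3 other receptors gave too few reads for a comparison of levels. Il17rb, the IL-25 receptor subunit, had 0 or 1 read in every library and 9 reads in all 36. Il17re, the IL-17C receptor subunit, had 0 to 6 reads per library and 54 in all, and 31 of 36 libraries had at most 3. Il17rd had 0 to 11 reads per library and 129 in all, and 19 of 36 libraries had at most 3. With 65–79*SE plus Il-4 it was at 0 in replicates 1–3 and at 2, 6 and 7 reads in replicates 4–6. A count of 0 allows up to 3 reads, which is 0.0475 to 0.145 CPM in the IFNγ table and 0.0979 to 0.176 CPM in the Il-4 table. Summed over the 6 libraries of a group, Il17rd ranged from 0.0709 CPM (exact Poisson 95% interval 0.0388 to 0.119) with 65–79*PE plus IFNγ to 0.209 CPM (0.139 to 0.303) in PBS of the Il-4 table. For Il17re the range was 0.0207 CPM (0.00428 to 0.0606) with 65–79*SE plus Il-4 to 0.0912 CPM (0.054 to 0.144) with 65–79*PE plus IFNγ. These intervals cover counting error only, and the main fit left these genes out. In fits that kept them (edgeR with no filter, and DESeq2) none was called in the 4 contrasts that did not choose the family, and the lowest unadjusted p was 0.211.

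**Figure D4:**
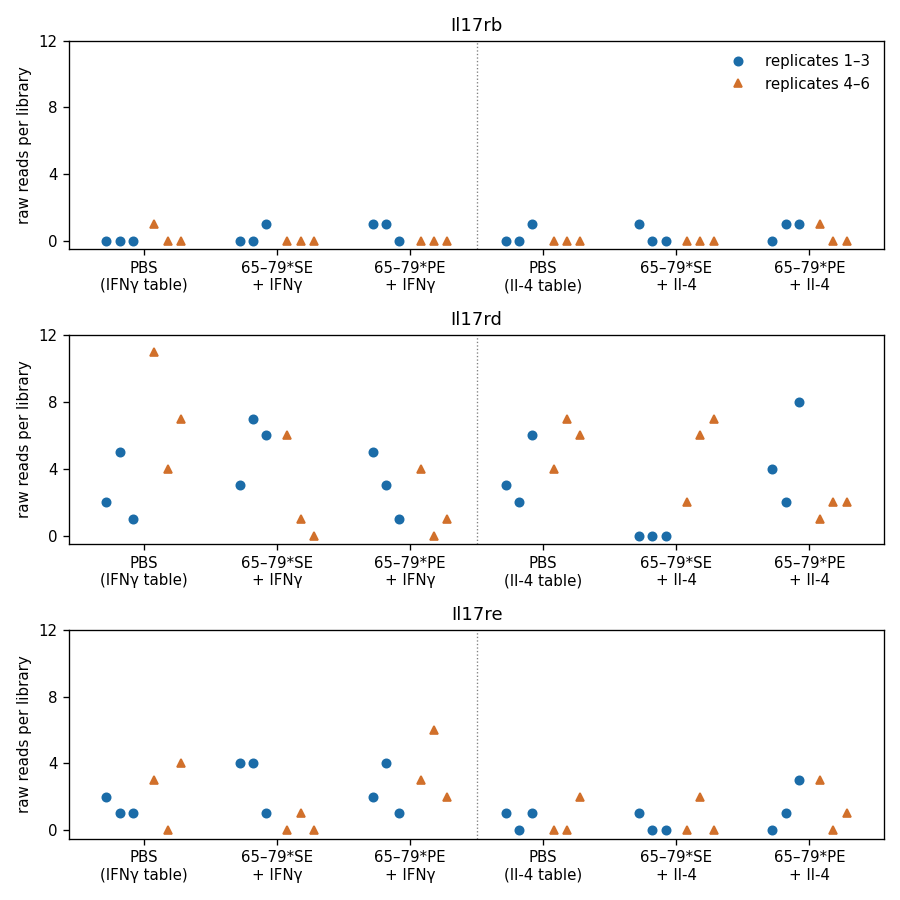
Raw reads of Il17rb, Il17rd and Il17re in each of the 36 libraries, with circles for replicates 1–3 and triangles for replicates 4–6. The highest values are 1 read for Il17rb, 11 for Il17rd and 6 for Il17re.

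The other genes of the pathway were taken from a list of 46 genes with 6 ligands, 12 adaptors or signalling proteins, 6 inhibitors, 5 transcription factors and 17 targets. None of the 6 ligands (Il17a, Il17b, Il17c, Il17d, Il17f and Il25) passed the filter in either table. The 12 adaptors and signalling proteins, the 6 inhibitors and the 5 transcription factors were all measured. Of the 17 targets, 7 were measured with IFNγ and 6 with Il-4. Several of these genes are also induced by NF-κB or by interferon without IL-17, and the list does not tell these apart.

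For 65–79*PE plus IFNγ, 10 of the 30 pathway genes tested were called, 7 higher and 3 lower, beside the 13.0% of all genes given above. The median log2 fold change of the list was 0.06 and that of all genes −0.02. Among the targets, the chemokine gene Ccl7 rose by 3.27 (SE 0.77, edgeR adjusted p = 0.0037) on the log2 scale, from 0.217–0.9 CPM in PBS to 3.48–5.78 CPM. The inflammatory cytokine gene Il6 rose by 2.62 (SE 0.59, edgeR adjusted p = 0.00284). Its groups did not overlap, with 0.084–0.995 CPM in PBS and 1.7–3.13 CPM with 65–79*PE plus IFNγ. In PBS both genes were low, where a floor of 3 reads is 0.0475 to 0.145 CPM in this table. With at least 10 counts required in every library, 8 pathway genes were called, 5 higher and 3 lower, beside 1500 of 12461 genes. Ptgs2, which makes prostaglandins, rose by 2.78 (SE 0.84, adjusted p = 0.0173), with 26.6–45.6 CPM in replicates 1–3 and 133–159 CPM in replicates 4–6, where PBS had 2.57–3.95 and 12.9–42.3 CPM. Mmp9, a gelatinase, fell by 2.57 (SE 0.18, adjusted p = 2.83e-07) on the log2 scale. Among the transcription factors Nfkbiz, which encodes IκBζ, rose by 1.44 (SE 0.39, adjusted p = 0.00913). Of the adaptors, Arid5a (0.66, adjusted p = 0.000498) and Traf5 (0.64, adjusted p = 0.00137) were higher. Arid5a binds and stabilises inflammatory mRNAs. Of the inhibitors, Nfkbia (−0.76, adjusted p = 9.05e-06) and Tnfaip3 (−0.79, adjusted p = 0.0036), both brakes on NF-κB, were lower.

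With 65–79*SE plus IFNγ, 2 of 30 pathway genes were called, beside 3.57% of all genes, Ccl7 higher (log2 fold change 3.17, SE 0.82, edgeR adjusted p = 0.0265) and Mmp9 lower (−1.31, SE 0.17, adjusted p = 0.000778). In replicates 1–3 alone 12 of 32 were called, 10 higher and 2 lower, beside 22.8% of all genes. All 9 targets that were tested there were called, 8 higher and 1 lower. The filter can keep a gene that is high in 1 group alone, and 7 targets passed it over all replicates. A gene kept in this way is likely to be called higher, so nothing is read from all 9 being called. Among the targets called in replicates 1–3 were Ccl7 (5.11, SE 0.23), Ptgs2 (5.11, SE 0.21), Il6 (3.87, SE 0.33) and Lcn2 (3.66, SE 0.10), which encodes a siderophore-binding protein. Nfkbiz was higher there by 2.26 (SE 0.15) and the inhibitor gene Zc3h12a, whose product degrades inflammatory mRNAs, by 0.94 (SE 0.11), while Srsf1, a splicing factor that is also placed in the Act1 mRNA pathway, was lower (−0.94, SE 0.11). In replicates 4–6 alone 5 of 30 were called and all were lower, beside 0.72% of all genes, namely Lcn2 (−3.48, SE 0.71), Ptgs2 (−1.69, SE 0.36), the neutrophil chemokine gene Cxcl2 (−1.63, SE 0.31), Mmp9 (−1.46, SE 0.22) and Tnfaip3 (−0.65, SE 0.12). Without the 3 libraries lacking the IFNγ response, 12 of 32 pathway genes were called, 10 higher and 2 lower, beside 18.6% of all genes. The filter kept 9 targets here as well, so its limit holds for this count too. Against 65–79*PE with IFNγ, Mmp9 (log2 difference 1.26, SE 0.18, adjusted p = 0.000302) and Tnfaip3 (0.71, SE 0.19, adjusted p = 0.0226) were higher with 65–79*SE, the 2 genes of 30 that were called, beside 3.19% of all genes. The direction turned between the sets of replicates. In replicates 1–3 alone 8 were called and all were higher with 65–79*SE, beside 6.08% of all genes, and in replicates 4–6 alone 9 were called, 1 higher and 8 lower, beside 13.8%. Without the 3 libraries lacking the IFNγ response 9 of 32 were called and all were higher, beside 5.16%. The limit of the filter holds for this count and for that of replicates 1–3, with 9 targets tested in each. Ptgs2 had a log2 difference of 1.54 (SE 0.16) in replicates 1–3 and −4.26 (SE 0.37) in replicates 4–6.

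For 65–79*SE plus Il-4, 3 of 29 were called, beside 3.1% of all genes. Mmp9 rose by 1.94 (SE 0.37, edgeR adjusted p = 0.00318) and Ccl7 by 1.58 (SE 0.40, adjusted p = 0.0198), and Nfkbiz fell by 0.61 (SE 0.18, adjusted p = 0.0373) on the log2 scale. Mmp9 had 2.78–13.1 CPM there and 0.596–8.78 CPM in PBS, which overlapped when the sets of replicates were pooled. For 65–79*PE plus Il-4, 4 of 29 were called and all were lower, beside 4.35% of all genes. Cxcl2 fell by 1.66 (SE 0.39, adjusted p = 0.008), Arid5a by 0.89 (SE 0.18, adjusted p = 0.00333), Nfkbiz by 0.82 (SE 0.18, adjusted p = 0.0046) and Traf3, an inhibitor of the receptor complex, by 0.61 (SE 0.15, adjusted p = 0.0129) on the log2 scale. The adaptor gene Traf3ip2 had log2 fold changes of −0.19 (SE 0.08, adjusted p = 0.157) with 65–79*SE and −0.21 (SE 0.08, adjusted p = 0.111) with 65–79*PE. Between the peptides with Il-4, 0 of 29 were called by edgeR and 1 by DESeq2, beside 1 of 13494 and 10 of 27441 genes. Of the 29, 7 had an unadjusted p under 0.05. Against PBS, 16 of 29 with 65–79*SE and 15 of 29 with 65–79*PE had an unadjusted p under 0.05. The share of all genes with such a p was not counted, so nothing is read from these unadjusted counts. Without the term for the sets of replicates edgeR called 0 with 65–79*SE plus Il-4 and 1 with 65–79*PE plus Il-4. Over all genes 62 and 113 of 13494 were then called.

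**Figure D5:**
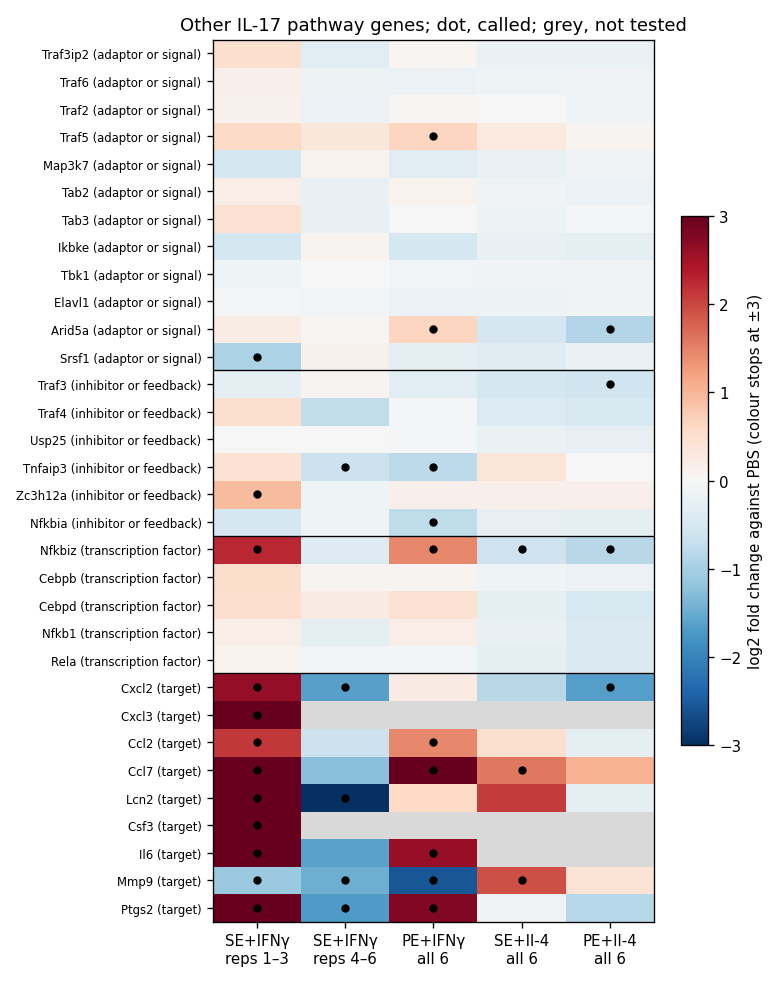
Log2 fold changes against PBS of the 32 pathway genes tested in at least 1 of the 5 fits shown, ordered by role, with red for higher and blue for lower (the colour scale stops at ±3), a dot for a call and grey for not tested. With 65–79*SE plus IFNγ all 9 targets that passed the filter are called in replicates 1–3, 8 of them higher. The filter can keep a gene that is high in 1 group alone. The 5 calls of replicates 4–6 are all lower, in libraries whose IFNγ response genes summed to 13.9–15.7 CPM, at the level of PBS.

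The genes whose pattern over the libraries was most like that of Il17ra were Dusp6 (Pearson r = 0.896), Jdp2 (r = 0.884), Vasp (r = 0.883), Ankrd11 (r = 0.883) and Leo1 (r = 0.862), out of 8482 genes compared. For Il17rc they were Psmb10 (r = 0.898), H2-K1 (r = 0.89) and H2-D1 (r = 0.889). The correlations run over 36 libraries of log2 CPM centred within table and set of replicates, so they follow the differences between the 6 groups. Il17ra and Il17rc had r = 0.078 with each other.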

How the data were processed

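RNA-seq counts of 36 libraries were used, in 2 tables of 18. By the study's methods, the authors made stranded poly(A) libraries, read them single-end and used featureCounts to assign reads with a unique alignment to genes of GRCm38.p5. The aligner and the strand option are not given in the sources used here. The deposited values are raw counts per gene by symbol, not normalised. Positions were taken by symbol from GENCODE release M21, later than the release the authors used, and 95.25% of the names matched. Promoter windows came from RefSeq, with an entry for 4 of the 5 receptors and none for Il17ra.

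The receptor genes, pathway list and markers were chosen with earlier results of these data known. Each table was fitted apart in R 4.3.3 by edgeR 4.0.16, quasi-likelihood method (TMM scaling, filterByExpr, terms for group and set of replicates), and p-values were Benjamini-Hochberg adjusted over all genes tested. The study tested with DESeq2 1.16.1. A gene was called at an adjusted p under 0.05 and a fold change over 1.5. CPM are TMM-scaled within a table. The script was tested on simulated data. A gene of the IFNγ response list and a motif are not reported here, and the response sums were computed without that gene. Named pathway genes were the called genes with the largest changes, up to 4 per role and comparison, and any gene behind a count of 5 or fewer. Traf3ip2 was named outside this rule, as the adaptor gene. Genes alike in pattern were taken among those with a mean of at least 10 CPM. Alternatives tried were DESeq2 1.42.0, RLE scaling in edgeR, no filter and a minimum of 10 counts in every library, no term for the sets, a replicate block, each set of replicates alone, each replicate number left out and levels not divided by length. Leaving out the 3 libraries without an IFNγ response was added after seeing the data.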

Additional observations from a re-analysis of the deposited data

Results flagged for a closer look

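The change of Il17rc with 65–79*SE plus IFNγ against PBS differed between the sets of replicates, by −0.68 on the log2 scale from replicates 1–3 to replicates 4–6. The difference of Il17ra between 65–79*SE and 65–79*PE with IFNγ also differed between the sets, by −0.63. Of 15949 genes, 3792 were called in the test behind the Il17rc result and 2760 in that behind the Il17ra result. In both cases the 65–79*SE libraries of replicates 4–6 are the ones whose IFNγ response genes summed to 13.9–15.7 CPM, at the level of PBS, and the part of those libraries in the result cannot be told apart from the set of replicates. Il17ra moved in opposite directions with 65–79*PE under the 2 cytokines. All 6 libraries with IFNγ were above the PBS mean of their set (log2 fold change 0.46) and all 6 with Il-4 were below it (−1.66). With 65–79*SE, 5 of 6 libraries with IFNγ and 0 of 6 with Il-4 were above the PBS mean of their set. This difference between the cytokines was not tested, since the tables were normalised apart and the Il-4 side chose the gene.

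Il17rb had 1 library away from the other 5 in 4 groups, each by a single read. The values were 0.0181 CPM in PBS of the IFNγ table, 0.0264 CPM with 65–79*SE plus IFNγ, 0.037 CPM in PBS of the Il-4 table and 0.0379 CPM with 65–79*SE plus Il-4. With 0 or 1 read per library, a group holding a single read is always marked, so these marks follow from the sparse counts. The usual rate of about 1 in 20 does not apply to them. Among the 30 gene and group combinations looked at, no library of the other 4 receptors was marked.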

How the results depend on the processing

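The log2 fold change of Il17ra with Il-4 stayed between −1.43 and −1.19 for 65–79*SE and between −1.80 and −1.47 for 65–79*PE over 14 alternatives each. It moved by more than the SD between libraries in replicates 1–3 alone (−1.19 for 65–79*SE and −1.47 for 65–79*PE) and in replicates 4–6 alone (−1.80 for 65–79*PE), and with 1 replicate number left out it ranged from −1.38 to −1.19 for 65–79*SE, at −1.19 without replicate 4. The number of receptors called with 65–79*SE plus IFNγ went from 0 to 1 (Il17rc) in replicates 1–3 alone and without the 3 libraries lacking the IFNγ response. With 65–79*PE plus IFNγ it went from 1 to 0 without the term for the sets of replicates, where 893 of 15949 genes were called. It went to 2 in replicates 4–6 alone, where 10.8% of genes were called. Some differences between the peptides that were not called turned sign, that of Il17ra with IFNγ to 0.12 in replicates 1–3 alone and to 0.05 without the 3 libraries, and that of Il17rc with Il-4 to −0.02 in replicates 4–6 alone. Over the alternatives the adjusted p of Il17rc with 65–79*PE plus IFNγ ranged from 1.88e-09 to 0.0779 and that of Il17ra between the peptides with Il-4 from 0.141 to 1.0.

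The counts of pathway genes called moved more. For 65–79*SE plus IFNγ against PBS (2 genes) they were 6 with no low count filter, 1 with at least 10 counts in every library, 1 without the term for the sets, 12 in replicates 1–3 alone, 5 in replicates 4–6 alone and 12 without the 3 libraries, and 1 to 7 with 1 replicate number left out, 7 without replicate 6 and 1 without replicate 1, 2 or 3. Between the peptides with IFNγ (2 genes) they were 1 without the term for the sets, 8 in replicates 1–3 (all higher with 65–79*SE), 9 in replicates 4–6 (1 higher and 8 lower), 9 without the 3 libraries (all higher) and 1 to 2 with a replicate number left out, 1 without replicate 1. For 65–79*SE plus Il-4 (3 genes) they were 7 with no filter, 0 without the term for the sets, 5 in replicates 1–3, 1 in replicates 4–6 and 1 to 5 with a replicate number left out, 5 without replicate 4 and 1 without replicate 2, 3 or 5. For 65–79*PE plus Il-4 (4 genes) they were 7, 1 and 1 with no filter, without the term and in replicates 4–6. Between the peptides with Il-4 (0 genes) they were 6 with no filter and 1 by DESeq2, beside 155 of 27458 and 10 of 27441 genes. Over all genes the calls moved as well. For 65–79*SE plus IFNγ, 569 of 15949 genes were called in the main fit and 25 without the term. With no filter there were 907 of 34716, and with at least 10 counts in every library 390 of 12461. In replicates 1–3 there were 3505 of 15343, and in replicates 4–6 there were 112 of 15563. Without replicate 1, 2 or 3 there were 29, 14 and 16, and without replicate 6 there were 1108. Without the 3 libraries there were 3093 of 16672. Between the peptides with IFNγ there were 509 of 15949, and 83 without the term. The cause of these moves was not tested.

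Of 36 pairs of same-numbered libraries between groups, 3 of 18 with IFNγ and 13 of 18 with Il-4 had deviations that correlated above 0.1, and a library matched best with its own number in 12 of 36 and 25 of 36 comparisons, so the numbers were not taken as pairs, which needed every pair above 0.1. In the Il-4 table most pairs were above it, a hint of pairing that comes from the data and not from the labels. With a replicate block the pathway counts with IFNγ were 1 for 65–79*SE against PBS and 1 between the peptides. Over all genes 148 and 340 of 15949 were then called. No other count of receptors or pathway genes moved by over 1.5 times with the block. The ratio of Il17ra to Il17rc in PBS of the Il-4 table was 0.791 per kilobase of exon and 2.56 in CPM, so the order of the receptors depends on the scale.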

Other observations

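Il17rc was higher in replicates 1–3 than in replicates 4–6 in all 6 groups, with no overlap between the sets in any of them. In PBS of the IFNγ table the sets had 15–18.3 and 11.1–12.8 CPM, and with 65–79*SE plus Il-4 they had 28.4–35 and 16.9–19 CPM. For Il17ra the sets were apart in 3 groups, with replicates 1–3 above, and overlapped in the other 3. Nfkbiz had the opposite order in PBS, with 3.47–4.58 CPM in replicates 1–3 and 11.9–16.5 CPM in replicates 4–6 of the IFNγ table.

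The PBS groups of the tables had 30.2 ± 3.3 and 55.3 ± 7.3 CPM of Il17ra (SD, n = 6 each) and 14.6 ± 3.03 and 21.6 ± 5.55 CPM of Il17rc. The tables were normalised apart, and no test was made between them.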
